A study of Mus musculus with 2 samples.

Results

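Mir22 is the gene of miR-22, a microRNA (miRNA) made in many adult tissues. The row named Mir22 was taken from each of the 2 count tables, 1 gene of the 2202 miRNA genes in them. It was chosen from measured values, as the gene among the 20 most abundant that differed most between the 2 libraries. Its level, its rank and its difference between the libraries are therefore descriptions without a test. The libraries were made from total RNA of adrenal glands. The mice were 36-day-old females of B6CASTF1/J, a first-generation hybrid strain from The Jackson Laboratory, with no treatment named. The libraries form 1 group, labelled as biological replicates 1 and 2 and as females numbered separately, although both carry 1 donor identifier. It is thus not certain that the spread between them is a spread between animals.

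A miRNA is cut from a hairpin in a longer transcript, loaded into an Argonaute protein and guided to messenger RNAs mainly by its seed, bases 2 to 8. Messages with a matching site, usually in the 3′ untranslated region (UTR), are repressed. The hairpin of miR-22 lies in an exon of a noncoding transcript, and miR-22 is best known from work on heart growth and blood cancers. Reported targets include Sirt1 and Hdac4, both deacetylases, and Tet2, which oxidises methylated cytosine.

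The sequences of the hairpin and of its arms are shown because the counts belong to the whole hairpin gene, so that reads of the 5p and the 3p arm could not be told apart. They are RefSeq sequences in GRCm38.p6, the mouse assembly also called mm10, and the hairpin is identical to the GENCODE M21 transcript. In the hairpin the capitals mark both mature arms, and in the arms they mark the seed.
Mir22 hairpin, chr11:75463716-75463810, plus strand: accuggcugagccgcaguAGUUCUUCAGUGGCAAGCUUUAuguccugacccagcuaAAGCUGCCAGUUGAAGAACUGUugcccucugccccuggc
mmu-miR-22-5p, chr11:75463734-75463755: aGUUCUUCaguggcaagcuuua
mmu-miR-22-3p, chr11:75463772-75463793: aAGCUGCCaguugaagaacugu

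The hairpin is 95 bases long with a GC content of 55.8%, and 16 bases separate its arms. Folded with RNAfold, it formed 36 base pairs with a predicted free energy of -41.9 kcal per mol. Of the 22 bases of the 5p arm, 19 were paired with the 3p arm. Its longest stretch shared with another miRNA hairpin of the tables, on either strand, was 13 bases, with Mir6998. In the GENCODE transcripts both mature sequences occurred in transcripts of Mir22, Mir22hg and Tlcd2, all of which cover this locus. The genome outside annotated transcripts was not searched.

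The seed of miR-22-3p, AGCUGCC, belonged to no other gene among the 1738 mature mouse sequences searched, and neither did the seed of miR-22-5p. In that set 32.0% of the sequences share their seed with another gene. With bases 2 to 7 alone, miR-22-5p matched miR-6935-3p and miR-7092-3p. Their genes were close to undetected, Mir6935 with 2 counts in each library and Mir7092 with 0 in both.

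Mir22 (ENSMUSG00000065529.1) lies in the second exon of Mir22hg, a noncoding gene on the plus strand of chromosome 11 (75461539 to 75466676). The hairpin starts 23 bases into that exon in both annotated transcripts of Mir22hg, of 2 and 3 exons. The exon is also part of a noncoding transcript annotated to Tlcd2, a coding gene on the same strand whose protein-coding transcripts start downstream, at 75468079. Small-RNA reads do not tell which of these transcripts a hairpin came from. No miRNA gene is annotated on the opposite strand.

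**Figure D1:**
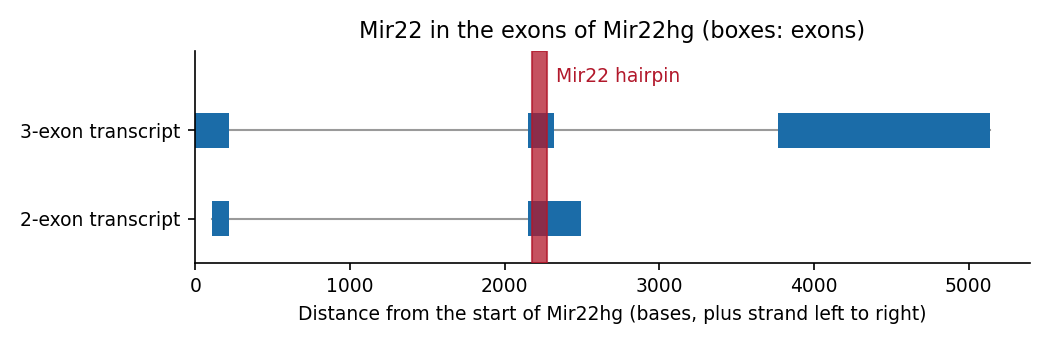
The 2 transcripts of Mir22hg, with the distance from the gene's start in bases on the horizontal axis, exons as boxes and the Mir22 hairpin as a red band. The hairpin lies inside the second exon of both transcripts, 23 bases from its start.

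To show what the seed can pair with, sites for miR-22-3p were searched in the sense strand of the longest annotated 3′ UTR of each coding gene. The site is GGCAGCT, the reverse complement of the seed, and the 8-base form, GGCAGCTA, adds an A. The 7-base site was present in 12.8% of 21020 genes and the 8-base site in 1.96%. All 9 reported target genes examined held the 7-base site. They were reported partly for such sites, so this count is no independent evidence. Of 13 genes of adrenal hormone synthesis and secretion, 2 held it, a share near the 12.8% of all genes. These were Star, which moves cholesterol into mitochondria, and Chga, a protein of chromaffin granules. The share of all genes is not matched for UTR length. The median over all genes was 961 bases, while the adrenal genes ran from 29 bases in Cyp11b2 to 3096 in Star, with 335 in Chga. The sites below, with the match in capitals and positions counted from the first base after the stop codon, show the 8-base matches of the reported targets and both adrenal matches.
Sirt1, bases 475 to 482: ttttccaaaacttgtGGCAGCTAac
Esr1, bases 2214 to 2221: aggaaaattattcagGGCAGCTAat
Star, bases 2162 to 2168: tttaaggtgagcgagGGCAGCTgta
Chga, bases 183 to 189: ccttctctgaacacaGGCAGCTttc
Esr1 encodes an oestrogen receptor. A match describes these letters, and messenger RNA was not measured in these libraries.

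Replicate 1 held 13973580 reads, of which 38.6% were sense reads of miRNA genes, and replicate 2 held 7530945, of which 40.2% were. Reads that mapped to several places, 28.5% and 30.6%, were counted for no gene. Levels are given as CPM, a gene's sense reads for each 1000000 sense miRNA reads of its library. All 5 miRNA genes listed for adrenal medulla and endocrine cells were detected with at least 10 reads in both libraries, led by Mir375 of hormone-secreting cells. Of all 2202 miRNA genes, 339 were. All 5 white-cell, 3 red-cell and 2 endothelial genes listed were detected too, so full detection was not particular to the adrenal list. Messenger markers of cortex and medulla cannot be read from a miRNA table.

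Mir22 had 228364 sense reads in replicate 1 and 33300 in replicate 2. These counts were 42308 CPM in replicate 1 (95% Wilson interval 42139 to 42479) and 10990 CPM in replicate 2 (10873 to 11108). Replicate 1 was thus high and replicate 2 low. The intervals cover counting error only. The mean was 26649 ± 22145 CPM (SD, n = 2), an SD of 83.1% of the mean. In replicate 1 the gene took 4.23% of the sense miRNA reads, or 1 read in 23.6. In replicate 2 it took 1.10%, or 1 read in 91.0. Counted against all reads of the library, mapped or not, it had 16343 for each 1000000 reads in replicate 1 and 4422 in replicate 2. In a whole gland, more cells of a type and more miRNA per cell cannot be told apart.

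Every Mir22 read was on the sense strand. The antisense count was 0 in both libraries, which allows an antisense share of up to 0.00131% in replicate 1 and 0.00901% in replicate 2 (3 counts). Counting without strand gave the same 228364 and 33300 reads, so the gene lost no reads to ambiguity between strands. Set against the smaller totals counted without strand, its mean level was 33869 CPM.

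Mir22 was the 6th most abundant gene in replicate 1 and the 21st in replicate 2, and 12th by mean CPM. Next above it by mean were Mir26b at 34227 ± 5672, Mir23b at 33302 ± 7832 and Mir21a at 26772 ± 11071 CPM (SD, n = 2). Next below were Mir375 at 25584 ± 4721, Mir10b at 24606 ± 12204 and Mir139 at 22932 ± 5785 CPM. Both values of each of these 6 genes lay inside the range between the values of Mir22, so its order against them could not be told from the spread between libraries. In all, 16 genes, from rank 6 to rank 22, overlapped that range. Only the 5 genes with the highest means, Mir126a, Mirlet7g, Mirlet7b, Mir378a and Mir10a, lay above it in both libraries, and 2180 genes lay below it in both. At the limit of the 20 genes by mean CPM, Mir30e was inside with 11770 CPM and a log2 ratio of -0.49. Mir30a was just outside with 11454 CPM and -0.36.

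**Figure D2:**
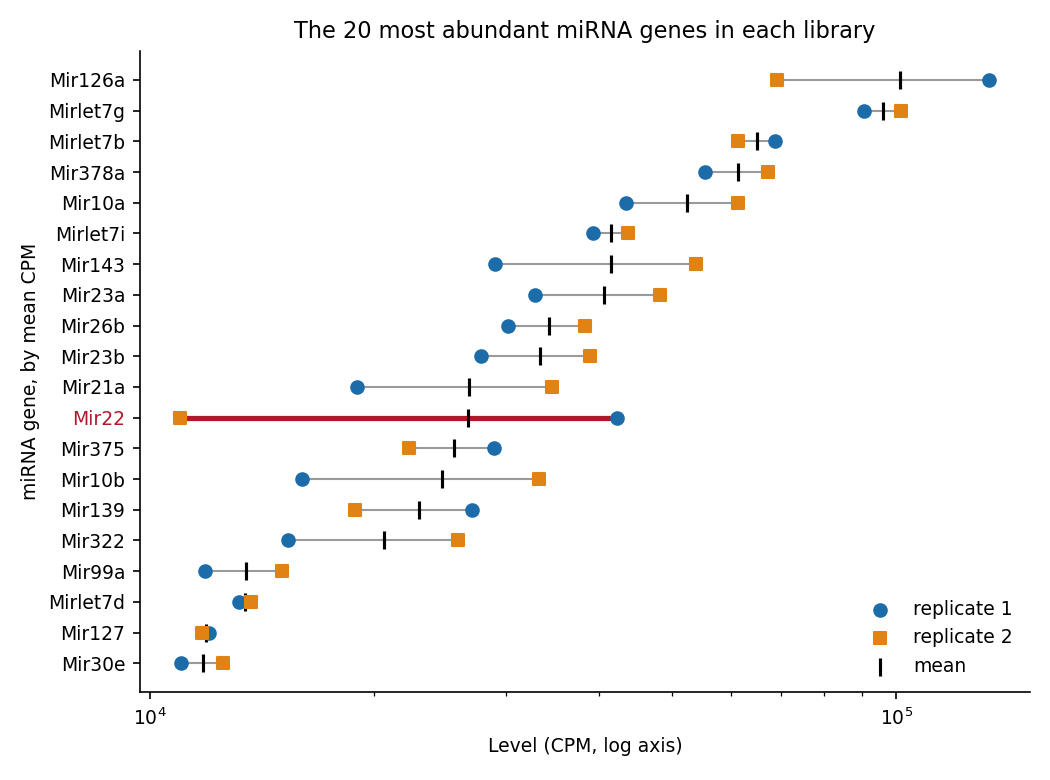
Level of the 20 most abundant miRNA genes in CPM on a log axis, with a circle for replicate 1, a square for replicate 2 and a tick for their mean. Mir22, in red, has the widest gap, from 10990 to 42308 CPM, and the values of the genes next to it by mean lie inside that gap.

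Counts of 2 genes in the same library can be compared without any scaling between libraries. In replicate 1, Mir22 had more reads than 14 of the other 19 top genes, and in replicate 2 it had fewer reads than all 19. The order thus changed in 14 of 19 pairs. For each 100 reads of Mirlet7g, a let-7 gene, there were 46.7 reads of Mir22 in replicate 1 and 10.8 in replicate 2. For each 100 reads of Mir21a, a miRNA of growth and injury responses, there were 223 and 31.8. For each 100 reads of Mir375 there were 146 and 49.4. Relative to the 19 genes, Mir22 was higher in replicate 1 by a median of 4.68-fold. Mir22 was chosen for its difference between these libraries, so folds on the same side of 1 against all 19 genes follow from that choice. The smallest of these folds was 2.00, against Mir126a of endothelial cells, and the largest was 8.01, against Mir10b of a Hox gene cluster.

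**Figure D3:**
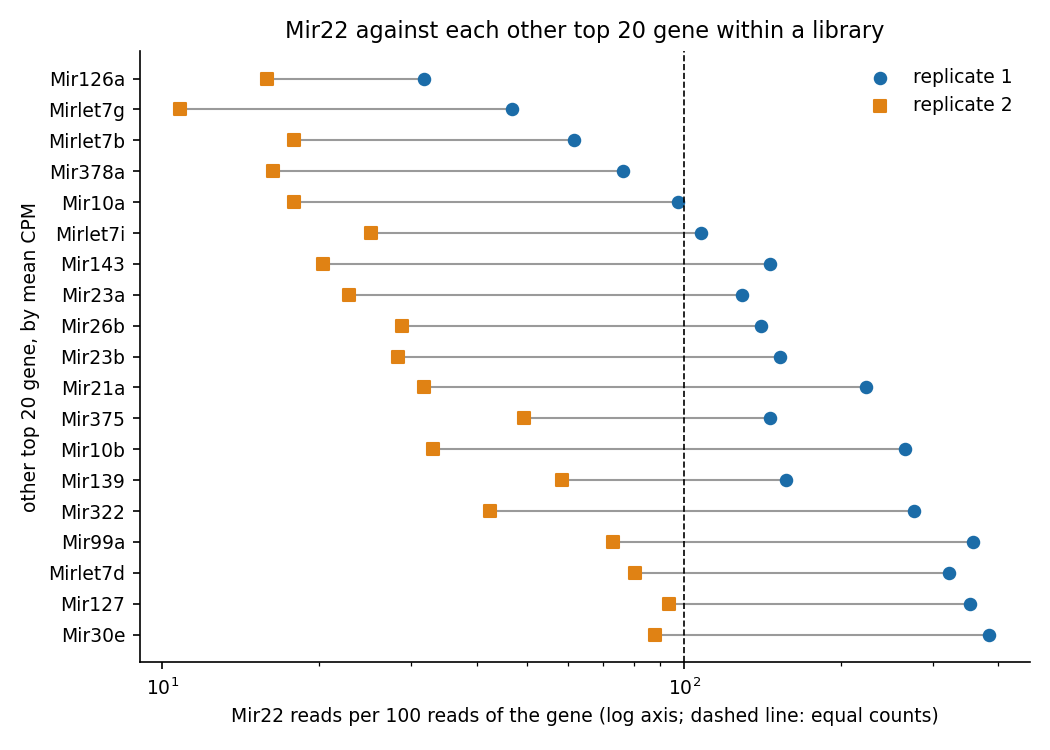
Reads of Mir22 for each 100 reads of each other top 20 gene, on a log axis, with circles for replicate 1 and squares for replicate 2. All 19 squares lie left of the dashed line of equal counts, while 14 of the circles lie to its right.

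Ratios between the libraries were scaled with TMM, which assumes that most genes do not differ. On this scale Mir22 was 3.12-fold higher in replicate 1, a log2 ratio of 1.64. Scaling to total counts moved all log2 ratios by 0.30 towards replicate 1 and gave 3.85-fold for Mir22. The next largest ratio among the 20 genes was that of Mir10b, which was 2.56-fold higher in replicate 2 (15976 and 33235 CPM). With TMM, 4 of the 20 genes were higher in replicate 1 and 16 in replicate 2, and with total counts the split was 6 to 14. Over the 112 genes with at least 1000 sense reads in both libraries, the median size of the ratio was 1.37-fold, and 6 genes had a larger ratio than Mir22. Of these, Mir195a (6372 and 959 CPM) and Mir423 (2913 and 699 CPM) were higher in replicate 1. Mir34c, Mir140, Mir145a and Mir203 were higher in replicate 2, with log2 ratios from -1.85 to -2.47. All 6 were listed here after their values were seen, for the size of their ratio. Mir34c and Mir140 are named for no other reason.

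Across genes, which share the same 2 libraries, the log2 ratio was higher by 0.29 for each 10 percentage points of hairpin GC content, in a straight-line fit over 284 genes with at least 100 reads in both libraries together. Mir22, at 55.8%, lay above the median GC content of 50.0%, and the fitted trend at its GC content was 0.19. With the trend removed its log2 ratio was 1.46, and the next in size among the 20 genes was then Mir143 at -1.37.

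**Figure D4:**
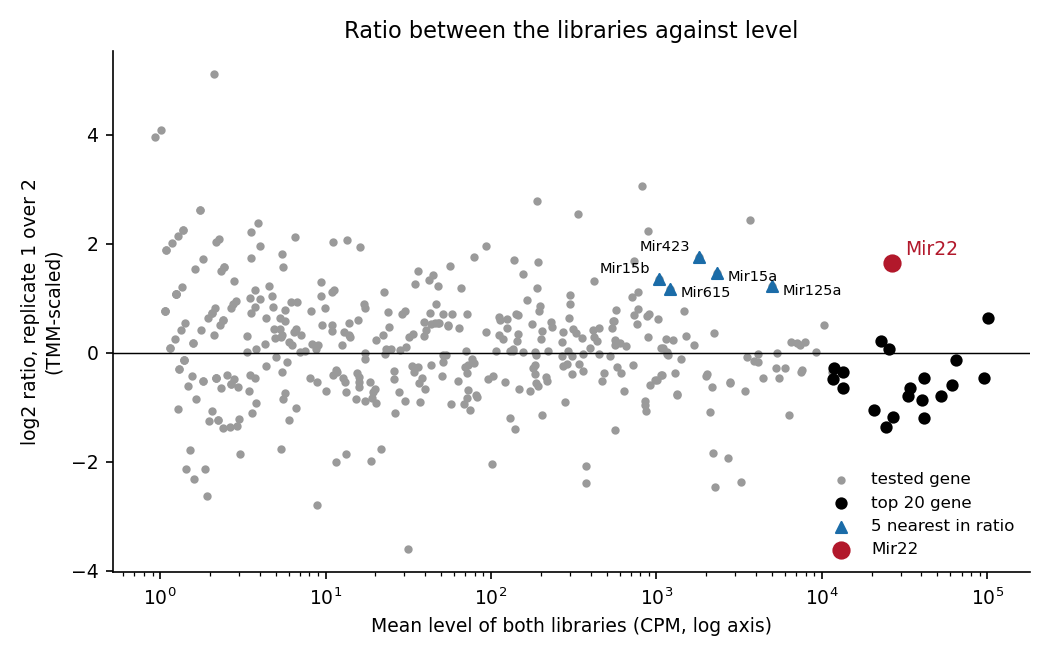
The log2 ratio of replicate 1 over replicate 2 (TMM-scaled) against the mean level in CPM on a log axis, for the 434 genes with at least 10 reads over both libraries. Mir22, in red at 1.64, stands above the other top 20 genes, in black, and the triangles mark the 5 genes nearest to it in ratio.

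The genes with at least 1000 sense reads in both libraries whose log2 ratio was nearest to that of Mir22 were less abundant than it. With 2 libraries, nearness is only a likeness of 2 values, and it says nothing of shared control. Mir423, the nearest, was 3.38-fold higher in replicate 1 (2913 and 699 CPM, a distance of 0.11 on the log2 scale). Mir15a was 2.77-fold higher (3613 and 1058 CPM) and Mir15b 2.54-fold higher (1563 and 498 CPM). Both carry miRNAs of the miR-15/16 family, known for limiting the cell cycle and Bcl2. Mir125a, a relative of the developmental regulator lin-4, was 2.33-fold higher (7410 and 2579 CPM). Mir615, from the HoxC cluster, was 2.26-fold higher (1782 and 639 CPM). These 5 were the only genes of the 111 compared whose log2 ratio lay within 0.5 of that of Mir22. Mir15a and Mir15b do not stand for their whole family. Mir16-2, of the same family and next to Mir15b on chromosome 3, had a log2 ratio of only 0.36 (398 and 252 CPM, from reads that mapped once). With 763 reads in replicate 2 it was not among the genes compared. The 5p arms of Mir15a and Mir15b are shown because they share a seed (capitals), which is not that of either arm of Mir22.
mmu-miR-15a-5p: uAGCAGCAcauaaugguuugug
mmu-miR-15b-5p: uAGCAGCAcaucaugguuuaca

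Each gene with at least 10 reads over both libraries was compared between the libraries. The test was the exact binomial test, two-sided, with p-values adjusted by the Benjamini-Hochberg method over all 434 such genes. The test covers counting error only and compares these libraries, not conditions. It called 254 genes, or 58.5%. Those higher in replicate 1 were 30.2% of the genes tested and those higher in replicate 2 were 28.3%. With total counts these shares were 43.5% and 19.1%. With the spread between the libraries taken as the error (edgeR's exact test with a common dispersion, a coefficient of variation of 41.6%), 0 genes (0.00%) were called, while 24 had an unadjusted p under 0.05. That spread was estimated from the same 2 libraries that were compared, so few calls could be made and the 0 says nothing of whether genes differed. With a minimum of 100 reads the test called 230 of 284 genes, so the share called was larger among genes with more reads. Counts of called genes in the lists that follow stand beside 58.5%, the share over all genes tested. A larger share in a list of well-counted genes therefore says nothing about its members. The word higher is used there only of called genes.

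Near Mir22 on the chromosome only 2 genes had enough reads for the test, both with ratios far smaller than its own. Mir132 and Mir212, which make miRNAs induced by CREB signalling, lie 290 kb away on the same strand. Mir132 had 647 and 474 CPM, a log2 ratio of 0.15 (adjusted p = 0.00231, exact binomial test), which was no longer called when the libraries were scaled with DESeq2 size factors (59.0% of all genes called). Mir212 had 33.9 and 32.7 CPM, a log2 ratio of -0.25 that did not pass the test (adjusted p = 0.245, exact binomial test). Of the other 3 genes within 1 Mb, Mir6926 had 4 reads in replicate 1 and 0 in replicate 2, and Mir3971 and Gm47300 had 0 in both. A count of 0 allowed 0.556 CPM in replicate 1 and 0.990 in replicate 2.

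Like Mir22, 72 other miRNA genes lie wholly inside an exon of a long noncoding gene on the same strand. With Mir22 these 73 genes, in 54 hosts, held 16.2% of the sense miRNA reads in replicate 1 and 11.4% in replicate 2. Mir22 supplied 26.1% of the reads of these genes in replicate 1 and 9.63% in replicate 2, and ranked 2nd and 3rd among them. Ahead of it was Mirlet7b of Lncppara (68707 and 61387 CPM) in both libraries, and Mirlet7d of 6720427I07Rik (13152 and 13684 CPM) in replicate 2. Mir30d of Gm20732 had 13130 and 7480 CPM and Mir191 of 4833445I07Rik had 7372 and 7606. Mir17 and Mir20a, which share the host Mir17hg, had 2528 and 3027 CPM, and 1121 and 1535 CPM. Mir29c of A330023F24Rik had 1486 and 1029 CPM. Of the 43 others that were tested, 33 were called. Of these, 15 were higher in replicate 1 and 18 in replicate 2, while with total counts the split was 22 and 10. Their median log2 ratio was 0.08, and that of all tested genes was also 0.08.

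Lists of miRNA genes reported to act on the same messages or processes as miR-22 held called genes in both directions. Many of their members have near-identical copies at other loci, and reads shared by copies were counted for none, so those values are uncertain. The list for the Tet enzymes had 14 members, all tested, of which 12 were called. Of these, 7 were higher in replicate 1 and 5 in replicate 2. The median log2 ratio was 0.12. Mir26b led it with 30216 and 38237 CPM, 1.56-fold higher in replicate 2. Mir29a, of a family known for repressing collagen messages, had 8306 and 5932 CPM, 1.14-fold higher in replicate 1. Mir7b was 1.44-fold higher in replicate 2, and Mir29c was 1.17-fold higher in replicate 1. When a 2-fold difference was required as well, 2 members were called, against 19.6% of all genes tested.

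The list for heart growth had 17 members, of which 12 were tested and 9 called. Of these, 3 were higher in replicate 1 and 6 in replicate 2. The median log2 ratio was -0.26, and with total counts it was 0.04. It was led by Mir23a (32833 and 48267 CPM, 1.81-fold higher in replicate 2). Mir21a followed with 18943 and 34600 CPM, 2.25-fold higher in replicate 2. Mir27b was 1.21-fold higher in replicate 2, but with total counts its log2 ratio turned to 0.03 (5367 and 5262 CPM). Mir195a was 5.39-fold higher in replicate 1. Mir133a-2, Mir1a-1 and Mir199a-1 had 0 reads in both libraries.

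**Figure D5:**
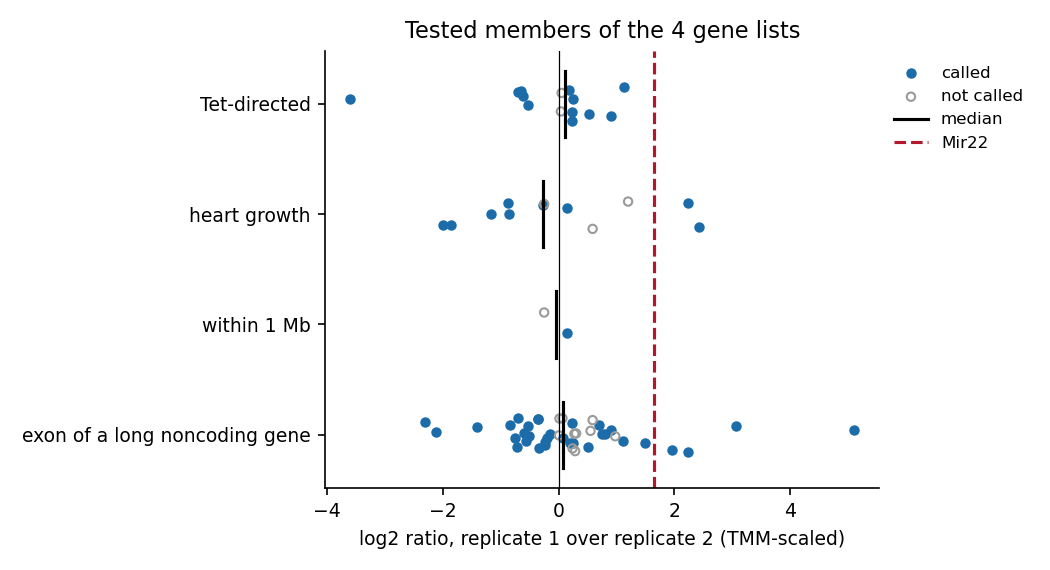
The log2 ratio of replicate 1 over replicate 2 for the tested members of 4 lists, with filled points for called genes, open points for genes not called, a black bar for each list's median and a dashed red line for Mir22 at 1.64. The members lie on both sides of 0, and the medians run from -0.26 to 0.12.

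Marker miRNAs of several cell types also differed between the libraries, and their part in the difference of Mir22 was not tested. The red-cell list (Mir451a, Mir144 and Mir486) was higher in replicate 1 for 3 of 3 genes and summed to 1210 and 576 CPM. Mir122 of hepatocytes had 1503 and 146 CPM, and the kidney and gut list was higher in replicate 1 for 3 of 3 tested genes, with sums of 136 and 57.4 CPM. The endothelial pair summed to 133214 and 69289 CPM, nearly all of it from Mir126a, which was 1.56-fold higher in replicate 1. Higher in replicate 2 were 5 of 5 white-cell genes (1928 and 2617 CPM, with the log2 ratio of Mir342 turning to 0.04 with total counts). So were 3 of 4 tested striated muscle genes (492 and 544 CPM, with Mir133a-2 and Mir1a-1 at 0). Most of the muscle sum came from Mir206 (474 and 494 CPM), whose log2 ratio was only -0.06 with total counts. The other called muscle genes had few reads, Mir499 with 48 and 88 and Mir208b with 36 and 60. In the list for smooth muscle and fibroblasts 3 of 5 tested genes were higher in replicate 2 and 1 in replicate 1 (31789 and 59526 CPM, with Mir199a-1 at 0). Most of that sum came from Mir143 of smooth muscle (28989 and 53980 CPM), and Mir145a of smooth muscle had 1251 and 5257 CPM. The fibroblast genes were split. Mir214 was 4.70-fold higher in replicate 1 (1528 and 264 CPM), while Mir199b, with 75 and 63 reads, was higher in replicate 2. In the epithelial list 2 of 6 tested genes were higher in replicate 2 and 1 in replicate 1 (873 and 3729 CPM), nearly all of the sum coming from Mir203. In the list for adrenal medulla and endocrine cells, which summed to 32103 and 25898 CPM, Mir375 was 1.05-fold higher in replicate 1, while Mir7b and Mir137 were higher in replicate 2. The direction of Mir375 depended on the setting. Its log2 ratio was 0.38 with total counts, 0.0037 with DESeq2 size factors and -0.44 with the GC trend removed.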

How the data were processed

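The authors deposited raw counts of reads for each miRNA gene, made on the mm10 assembly with GENCODE M21, per the notes deposited with each library. Which aligner, counter and trimming were used is not given in the sources used here. The 3 columns of counts have no names and were read as without strand, sense and antisense. All 3 account for the same reads, and the first alone holds ambiguous reads (1207168 and 516801 in replicates 1 and 2), as overlap of genes on opposite strands gives when strand is ignored. Of the others, the column with the larger total (5397603 against 1207696 in replicate 1, 3029977 against 517227 in replicate 2) was taken as sense. No header names it. Entries that name no gene entered no library size or test. For replicates 1 and 2 they were unmapped reads (26.0% and 22.3%), multimapped reads (28.5% and 30.6%) and reads outside miRNA genes (6.88% and 6.86%). Levels used sense counts. Ratios used TMM effective sizes (edgeR 4.0.16, R 4.3.3) with a prior of 0.5 counts. Called means an adjusted p under 0.05 in the exact binomial test (scipy 1.17.1, statsmodels 0.14.6). The test was also run on counts simulated with counting error only, which is the error it assumes. That run therefore says nothing of calls under a wider spread between libraries. The count minimums were 10 reads for tests, 100 for the GC trend and 1000 in each library for likeness. The design could not use edgeR's quasi-likelihood test, because comparing replicate 1 with replicate 2 leaves 1 library on each side and no replicates. DESeq2 1.42.0 gave alternative size factors, and RNAfold 2.7.2 folded the hairpin. Sequences came from RefSeq (GRCm38.p6), where 1018 of the 2202 genes matched by symbol, and from GENCODE M21 transcripts.

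The gene, the lists and the alternatives were chosen with earlier results of these data known. Named are Mir22, its 3 neighbours on either side by mean CPM, the 5 genes nearest in ratio, the next largest ratio of the top 20, genes within 1 Mb, up to 4 genes of each pathway list, the leading 8 genes in noncoding exons and up to 3 of each marker list. The genes searched for seed sites and their sites were chosen after the tables were seen. One gene list and one target gene of the plan are not reported here.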

Additional observations from a re-analysis of the deposited data

How the results depend on the processing

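The direction of Mir22, higher in replicate 1, was the same under all 11 other settings tried, while the size of its log2 ratio moved from 1.64 by more than counting error under 9 of them. It was 1.94 with total counts, 1.57 with DESeq2 size factors, 1.89 with all reads as library size and 1.68 when counted without strand. It was 1.76 with at least 100 counts for the scaling, 1.78 with no count minimum, 1.67 with the deeper library thinned, 1.46 with the GC trend removed and 1.68 without the most abundant gene. With either library left out, the level and rank were 10990 CPM and 21 (without replicate 1) or 42308 CPM and 6 (without replicate 2). The order of Mir22 changed in 5 of 10 pairs when only the top 10 genes were used. The 254 called genes became 85 with a 2-fold minimum and 0 with edgeR's common dispersion, estimated from the same 2 libraries (24 at an unadjusted p under 0.05). Genes within 0.5 of the log2 ratio of Mir22 numbered 12 with at least 100 counts, and 2 of the 5 nearest were shared. A 2-fold minimum left 2 of 14 tested genes called in the Tet list and 5 of 12 in the heart growth list. It left 0 of 2 within 1 Mb and 9 of 43 in noncoding exons, against 19.6% of all genes tested. DESeq2 size factors left 0 of 2 within 1 Mb, against 59.0% of all genes tested. No paired analysis was possible because the libraries form 1 group. With 2 libraries the spread of Mir22 has 1 degree of freedom, so depth, at 33300 reads or more, did not limit its precision.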
